A study of Homo sapiens with 6 samples.

Results

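The genes described here encode the SR proteins and the heterogeneous nuclear ribonucleoproteins (hnRNPs), the main families of proteins that bind pre-mRNA and steer its splicing. They were taken by name from the deposited table: every row whose symbol is SRSF plus a number or begins with HNRNP, leaving out pseudogenes, antisense names and the rows numbered as a further copy of a gene. That gave 36 genes, 12 SRSF and 24 HNRNP, of 27887 rows. The rule itself used no expression value, but it was set with earlier results of these data known. RNA-seq was done on the established human line KYSE450, from a squamous cell carcinoma of the esophagus, with 3 libraries from cells given a mock virus (genotype WT) and 3 from cells infected with a virus against HMGB2 (HMGB2 knockdown). All 6 libraries thus come from infected or mock-infected cells of the same line, and the labels do not state what the mock virus carried, the hairpin's sequence or the time after infection. In each group the libraries numbered 2 and 3 are called repeat samples, with no word on separate cultures, so every p-value below reflects how much these libraries vary, and that variation may be technical. The study's stated purpose was to find genes that regulate cholesterol metabolism. HMGB2 encodes a chromatin protein that bends DNA.

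SR proteins carry RNA recognition motifs followed by a tail rich in arginine and serine. They bind exonic enhancers and recruit the spliceosome, and their tails are phosphorylated by the SRPK and CLK kinases. The hnRNPs coat nascent transcripts, and many of them act as splicing silencers. Cells hold both families at high levels and tune many members through their own mRNA, by splicing in an exon that sends the transcript to nonsense-mediated decay. The table holds 1 value per gene row, so levels of mRNA were measured and splicing itself was not.

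HMGB2, the hairpin's target, stood at 116, 111 and 109 FPKM (fragments per kilobase of transcript, scaled to library size) in the mock libraries and at 22.1, 24.4 and 27.8 in the shHMGB2 libraries, so that 22.1% was left (log2 difference -2.14 ± 0.084 SE, adjusted p = 0.000113 by limma). Summed FPKM ran from 740684 to 829437 per library. Relative size factors ran from 0.703 in shHMGB2 replicate 3 to 1.32 in shHMGB2 replicate 1. They were read from the authors' group values, as the inverse of the commonest value among rows above 0 in only that library of its group. These inverses were scaled over all libraries. The absolute number of reads per library could not be read from the table. Epithelial markers were abundant: all 10 in a list passed the filter of a mean of 1 FPKM, KRT5 among them with 3305 to 3884 FPKM over the libraries. Of these 10, 4 fell and 1 rose, and their summed level was 8136 to 8539 FPKM in mock and 7012 to 7749 in shHMGB2. Of 7 fibroblast, 6 leukocyte and 5 endothelial markers, 1 of each list passed that filter, and PTPRC, the pan-leukocyte marker, was at 0.03 FPKM or less. CD68, the leukocyte-list gene that passed, fell from 7.28 ± 0.377 to 4.43 ± 0.210 FPKM (SD over 3 libraries per group, adjusted p = 0.00454 by limma). Summed levels in mock and shHMGB2 were 2.91 to 3.70 and 3.99 to 4.41 FPKM for the fibroblast list, 6.94 to 7.70 and 4.55 to 4.87 for the leukocyte list, and 1.88 to 2.58 and 2.39 to 2.80 for the endothelial list; the part of these markers in the results was not tested. Of the 13409 genes in the table that passed the filter, limma called 905 at an adjusted p under 0.05 (6.75%).

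Most SR and hnRNP genes differed little between mock and shHMGB2 cells. Of the 34 genes that passed the filter, 1 fell, 0 rose and 33 did not pass the test, a share called of 2.94% against 6.75% of all genes tested (3.3% higher and 3.45% lower). The 1 gene that fell was SRSF8. With an unadjusted p under 0.05 there were 7 of the 34, 4 higher and 3 lower, beside 27.9% of all genes tested (16.8% higher and 11.1% lower). The median log2 fold change over the 34 genes was 0.001, against 0.04 over all genes tested, and the values ran from -0.47 to 0.27. A median standard error of 0.061 (log2) came with these estimates, against 0.087 over all genes tested. Absolute log2 fold changes under 0.1 were seen in 19 of the 34 genes, or 55.9%, and in 38.7% of all genes tested. In these bulk libraries fewer cells of a type and less RNA per cell cannot be told apart.

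The 3 shHMGB2 values lay wholly outside the range of the 3 mock values for 11 of the 34 genes (32.4%), 7 of them higher and 4 lower. Over all genes tested the groups did not overlap in 35.6%, with 21.6% higher and 14% lower. Both shares are close, so the count of genes with separated groups is not a result about these families.

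**Figure D1:**
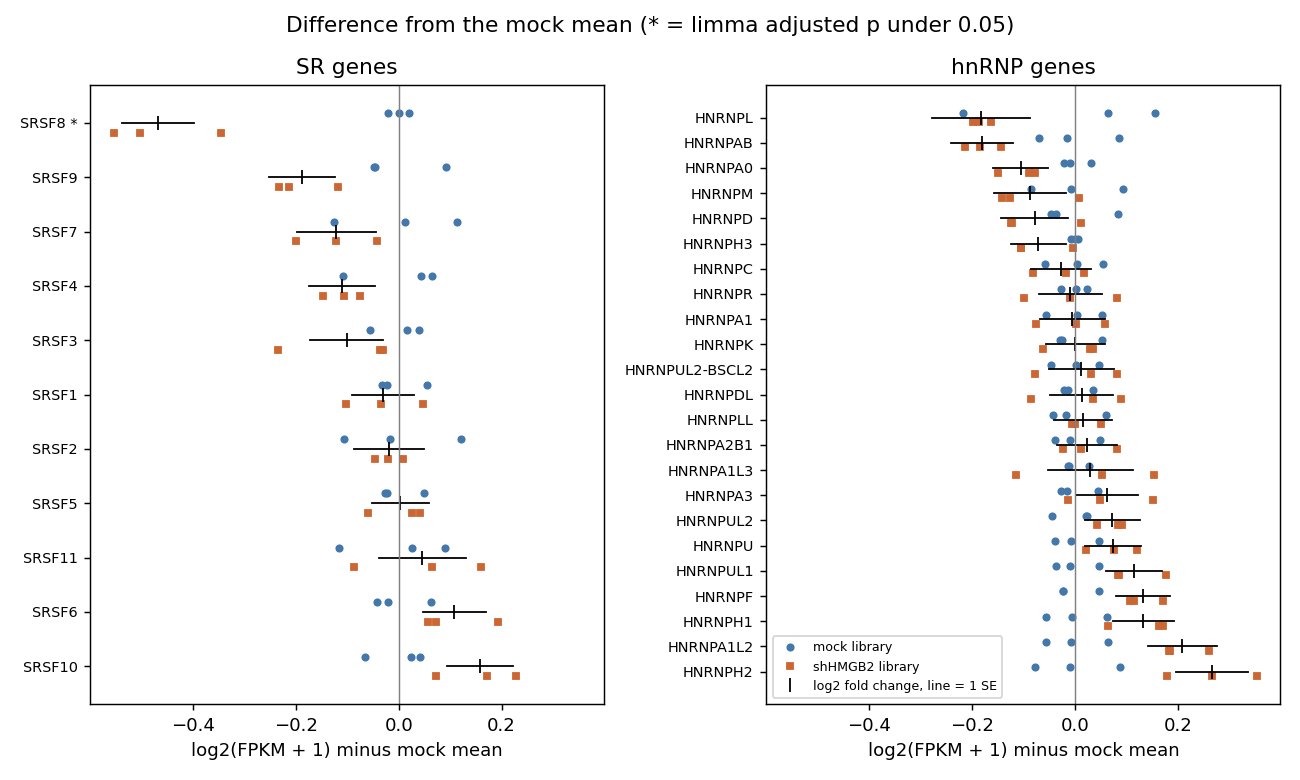
Difference of each library from the mock mean on the log2(FPKM + 1) scale, for the 11 SR genes (left) and 23 hnRNP genes (right) tested; circles are mock libraries, squares shHMGB2 libraries, and the tick with its line is the limma log2 fold change with 1 SE. SRSF8 at -0.47 stands alone as the gene past the threshold, and most other genes have overlapping groups near 0.

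The highest levels were those of hnRNP genes. HNRNPA1, which binds splicing silencers and shuttles between nucleus and cytoplasm, was highest, with 606, 631 and 653 FPKM in mock and 598, 656 and 631 in shHMGB2. The groups overlapped fully (log2 difference -0.01 ± 0.063 SE, adjusted p = 0.967 by limma). HNRNPA2B1 came second with means of 580 ± 18.2 and 589 ± 21.9 FPKM (SD over 3 libraries per group), and HNRNPK, HNRNPC and HNRNPAB followed with mock means of 366, 361 and 356 FPKM. The ranges of these neighbours in level overlapped, with 598 to 656 FPKM for HNRNPA1 and 564 to 613 FPKM for HNRNPA2B1 over the 6 libraries, and so did those of HNRNPK and HNRNPC.

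The most abundant SR gene was SRSF2, sixth over both families, with 220, 188 and 200 FPKM in mock and 196, 203 and 199 FPKM in shHMGB2. Mock and shHMGB2 differed by -0.02 ± 0.069 SE in log2 (adjusted p = 0.878 by limma), with overlapping groups. SRSF8, HNRNPA1L2 and HNRNPA1L3 were the lowest genes tested, with mock means of 19.4, 7.43 and 7.38 FPKM. SRSF12 and HNRNPD-DT did not reach a mean of 1 FPKM and were not tested. SRSF12, an SR protein of low level here, averaged 1.05 ± 0.072 and 0.913 ± 0.021 FPKM in mock and shHMGB2 (SD over 3 libraries per group). HNRNPD-DT is a noncoding transcript that runs away from the HNRNPD promoter, taken in by its name; it was listed at 0, 0 and 0.13 FPKM in mock and at 0.11, 0.10 and 0 in shHMGB2.

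**Figure D2:**
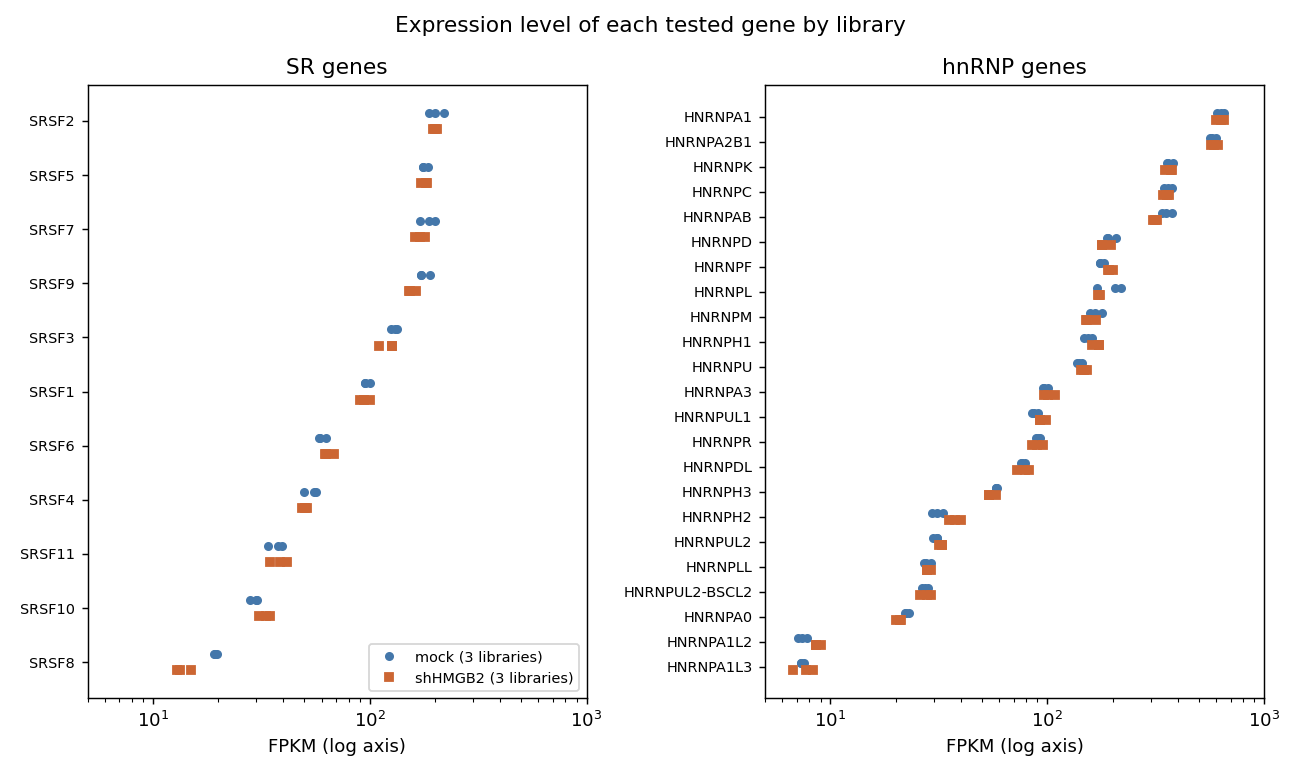
FPKM of each tested gene in the 3 mock libraries (circles) and 3 shHMGB2 libraries (squares) on a log axis, SR genes left and hnRNP genes right, ordered by mean level. Levels span from about 7 FPKM (HNRNPA1L3, mock mean 7.38) to HNRNPA1 at 606 to 653 FPKM in mock, while the groups of a gene lie close together on this axis, with the widest gap in SRSF8.

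Added up, the 12 SR genes gave 1221, 1158 and 1143 FPKM in mock and 1075, 1151 and 1144 in shHMGB2, a ratio of group means of 0.957. For the 24 hnRNP genes the sums were 3921, 3861 and 3893 FPKM in mock and 3735, 3952 and 3901 in shHMGB2, a ratio of 0.993. The lowest sum of either family was that of shHMGB2 replicate 1, and mock and shHMGB2 sums overlapped in both families. Together the 36 genes made up 0.619% to 0.689% of the summed FPKM of a library. No test was made on these sums, since the genes were chosen as a set.

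SRSF8 was the exception. It is a retrocopy of SRSF2, the SR protein also known as SC35, and lies on chromosome 11 at 95066877 to 95071225 (RefSeq, GRCh38.p14). SRSF8 was measured at 19.1, 19.7 and 19.4 FPKM in mock and at 12.9, 13.4 and 15.0 after the knockdown. All 3 shHMGB2 values lie under all 3 mock values, and the mock values lie within 0.6 FPKM of each other. The means were 19.4 ± 0.290 and 13.8 ± 1.13 FPKM (SD over 3 libraries per group), a level that fell by 28.96% (log2 difference -0.47 ± 0.070 SE, adjusted p = 0.0115 by limma). In the authors' deposited table its log2 fold change was -0.57 with an adjusted p of 1.94e-08. The call was lost in limma without mock replicate 2 (adjusted p = 0.055) or without shHMGB2 replicate 2 (adjusted p = 0.0614), with log2 fold changes of -0.46 and -0.45.

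The start of the coding sequence of SRSF8 and of its parent is printed to show how far their reads can be told apart, since the copy was called and the parent was not. Both stretches are bases 1 to 120 of the coding sequence, from GENCODE 29 transcripts on GRCh38, and capitals mark the 12 bases that differ.
SRSF8: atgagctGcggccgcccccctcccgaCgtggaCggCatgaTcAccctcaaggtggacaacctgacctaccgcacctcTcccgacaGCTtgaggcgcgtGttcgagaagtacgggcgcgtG
SRSF2: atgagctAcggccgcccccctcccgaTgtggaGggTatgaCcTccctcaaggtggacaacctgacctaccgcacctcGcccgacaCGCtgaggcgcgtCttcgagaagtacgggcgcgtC
Over the 657 coding bases that align without a gap, 84.8% were identical. None of the 3046 distinct 50-base words in SRSF2's protein-coding transcripts occurred in a GENCODE transcript of another gene, SRSF8 included. Of SRSF8's own 3979 words, 4.02% occurred in another gene. The labels give no read length, so this share is a guide only.

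The 250 bases upstream of its RefSeq start, chr11:95066627-95066876 on the plus strand (GRCh38.p14), are printed because this is the 1 gene called, with the single match to the motifs searched in capitals.
SRSF8: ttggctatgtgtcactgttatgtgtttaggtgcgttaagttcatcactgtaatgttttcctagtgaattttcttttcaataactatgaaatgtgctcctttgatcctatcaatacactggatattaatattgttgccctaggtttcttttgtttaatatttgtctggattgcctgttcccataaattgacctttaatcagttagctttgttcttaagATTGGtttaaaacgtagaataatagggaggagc
This window holds 2 CG pairs, the fewest of the 33 genes with a promoter entry, whose median was 26 and whose next lowest was 8 in HNRNPH1. Over the windows of tested genes the median was 21, and 3.54% held 2 or fewer. The capitals are ATTGG, the reverse complement of the CCAAT box, 33 bases before the start. CCAAT on either strand was found in 48.5% of the 33 genes' windows and in 35.8% of those of tested genes. GGGCGG on either strand was found in 63.6% and 68.1%, and TATAAA on either strand in 15.2% and 5.34%. GENCODE 29 places the start of SRSF8 320 bases further downstream, so the window depends on the annotation. SRSF2 has no entry in the promoter table.

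The other SR genes did not pass. SRSF1, the founding member, which acts in splicing and in mRNA export, had 94.7, 95.3 and 100.6 FPKM in mock and 90.1, 100 and 94.5 in shHMGB2, with overlapping groups (log2 difference -0.03 ± 0.060 SE, adjusted p = 0.766 by limma). SRSF9, its closest relative, had 190, 172 and 172 FPKM in mock and 153, 164 and 151 in shHMGB2. Here the groups were apart, but the difference missed the threshold (log2 difference -0.19 ± 0.064 SE, adjusted p = 0.114 by limma). In the authors' deposited table SRSF9 had a log2 fold change of -0.27 and an adjusted p of 0.0112. SRSF9 and SRSF1 shared 70.8% of their aligned coding bases.

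SRSF3 and SRSF7, small SR proteins that also act as export adaptors, had log2 fold changes of -0.10 and -0.12 (limma adjusted p = 0.386 and 0.34). In both, the groups overlapped, and for SRSF3 the lowest value was the 110 FPKM of shHMGB2 replicate 1. SRSF4, SRSF5 and SRSF6, which have long arginine-serine tails, had log2 fold changes of -0.11, 0.003 and 0.11. SRSF10, which represses splicing when it loses its phosphates, had 28.1, 29.9 and 30.3 FPKM in mock and 31.0, 33.2 and 34.6 in shHMGB2. Those groups did not overlap, and the difference did not pass (log2 difference 0.16 ± 0.064 SE, adjusted p = 0.161 by limma). SRSF11, an SR-related member, had a log2 fold change of 0.05 (limma adjusted p = 0.747).

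Among the hnRNP genes 0 of 23 passed in limma, beside 6.75% of all genes tested. A limma p under 0.05 before adjustment was found for 4 of the 23, beside 27.9% of all genes tested. The proteins of the F and H group bind runs of G, and none of its 4 genes passed. HNRNPH2 (chromosome X, 101408222 to 101414133, RefSeq on GRCh38.p14) had the smallest p of the hnRNP genes, with 30.8, 29.4 and 33.1 FPKM in mock and 35.3, 40.0 and 37.6 in shHMGB2 (log2 difference 0.27 ± 0.070 SE, adjusted p = 0.0662 by limma). HNRNPF had 175, 184 and 175 FPKM in mock against 192, 191 and 200 in shHMGB2 (limma adjusted p = 0.157). HNRNPH1 means were 154 ± 6.50 and 169 ± 6.88 FPKM (SD over 3 libraries per group), and its groups were barely apart, since the highest mock and the lowest shHMGB2 library both had 161 FPKM after rounding. HNRNPH3 lay the other way, at 58.2 ± 0.282 and 55.4 ± 2.29 FPKM (SD over 3 libraries per group, adjusted p = 0.416 by limma). HNRNPH2 and HNRNPH1 shared 87.6% of their coding bases.

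In the A and B group, HNRNPAB, which also binds single-stranded DNA, had 378, 352 and 339 FPKM in mock and 307, 313 and 322 in shHMGB2. Every shHMGB2 library was under every mock library, without passing in limma (log2 fold change -0.18, SE 0.061, adjusted p = 0.111). The authors' deposited table gave it a log2 fold change of -0.26 and an adjusted p of 0.0071. HNRNPA0, encoded by a gene with no intron, was apart in the same direction (22.5 ± 0.437 and 20.8 ± 0.571 FPKM, SD over 3 libraries per group, adjusted p = 0.246 by limma). HNRNPA3 and HNRNPA2B1 had log2 fold changes of 0.06 and 0.02.

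HNRNPA1L2 and HNRNPA1L3 are retrocopies of HNRNPA1, and their values are uncertain. HNRNPA1L2 had 7.38, 7.10 and 7.81 FPKM in mock and 8.56, 8.57 and 9.09 in shHMGB2, with no overlap (log2 difference 0.21 ± 0.066 SE, adjusted p = 0.0985 by limma). Its coding sequence was 98.4% identical to that of HNRNPA1 over 963 bases, and 58.5% of its 50-base words occurred in another gene, 47.6% in HNRNPA1. The parent is far more abundant, with a mock mean of 630.4 FPKM against 7.43 FPKM for the copy. How the authors' counting split reads between them was not tested. HNRNPA1L3 had overlapping groups and a log2 fold change of 0.03. HNRNPA1 itself shared 25.4% of its words with other genes. Larger shares were found for HNRNPUL2 with the noncoding readthrough HNRNPUL2-BSCL2 (45.2%) and for SRSF1 with an overlapping locus, AC015813.2 (54.5%).

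HNRNPU, a nuclear matrix protein, and its relatives HNRNPUL1 and HNRNPUL2 had log2 fold changes of 0.07, 0.11 and 0.07, with limma adjusted p of 0.408, 0.218 and 0.4. HNRNPC, which guards against inclusion of Alu-derived exons, HNRNPD (AUF1), which binds AU-rich elements, HNRNPDL, HNRNPK, HNRNPLL, HNRNPM and HNRNPR had overlapping groups and log2 fold changes between -0.09 and 0.02.

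HNRNPL (chromosome 19, 38836370 to 38852347, RefSeq on GRCh38.p14) binds CA repeats, and the table lists it in a main row and a row numbered as a copy. Which transcripts each row holds is not stated in the sources used here, so either the main row or the sum of both may describe the gene. Of its 50-base words, 27.8% occurred in another gene, 18.2% in AC008982.1. Its main row had 219, 205 and 169 FPKM in mock and 173, 171 and 175 in shHMGB2, so mock replicate 3 lay with the shHMGB2 libraries and the groups overlapped (log2 difference -0.18 ± 0.095 SE, adjusted p = 0.253 by limma). Without mock replicate 3 the main row would be called lower (log2 fold change -0.29, limma adjusted p = 0.0457). In the authors' deposited table HNRNPL was lower, with a log2 fold change of -0.47 and an adjusted p of 0.00245. The copy row, HNRNPL-2, had 49.1, 36.8 and 78.9 FPKM in mock and 87.6, 79.5 and 63.8 in shHMGB2. The copy was lowest in mock replicates 1 and 2, where the main row was highest, and it held 18.3%, 15.2% and 31.9% of the sum of both rows in mock and 33.7%, 31.7% and 26.7% in shHMGB2.

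The sum of the HNRNPL rows was 268, 242 and 248 FPKM in mock and 260.2, 251 and 239 in shHMGB2, with full overlap and a log2 difference of -0.01 ± 0.065 SE (adjusted p = 0.901 by limma with copies summed). On the authors' own scale the summed group values were 8028 and 7192, a log2 ratio of -0.16 against -0.47 for the main row alone. HNRNPH1 and HNRNPR also have a copy row, which held 23.3% to 25.9% and 5.89% to 7.83% of the sum in the 6 libraries. For these genes summing changed the log2 fold change by little, from 0.13 to 0.12 and from -0.01 to -0.02.

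**Figure D3:**
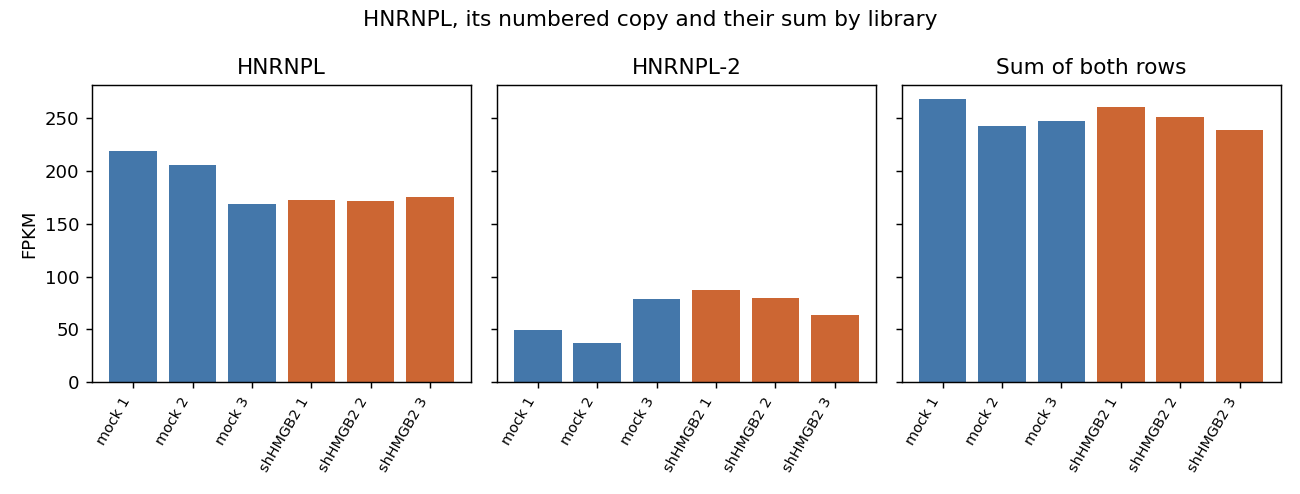
FPKM of the HNRNPL row, its numbered copy HNRNPL-2 and their sum in each of the 6 libraries; bars start at 0, blue is mock and orange shHMGB2. In mock replicates 1 and 2 the main row is high (219 and 205 FPKM) and the copy low (49.1 and 36.8 FPKM), and the sum stays between 239 and 268 FPKM in all libraries.

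The authors' deposited table called 4 of the 35 genes for which it gives an adjusted p, all lower: SRSF8, HNRNPL, HNRNPAB and SRSF9. Its background was 15.4% of 13585 rows at an adjusted p under 0.05, 6.13% higher and 9.23% lower. Its log2 fold changes sit lower than the log2 ratios of mean FPKM by a median of 0.063 over all genes tested (a difference of -0.063). After removal of that offset, HNRNPL was the gene that departed, by -0.22, at percentile 1.40 of all genes tested. The next was SRSF11 at 0.08, at percentile 95.5, and the other 32 genes lay within 0.05 of the offset. The part that the split between rows had in this was not tested.

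**Figure D4:**
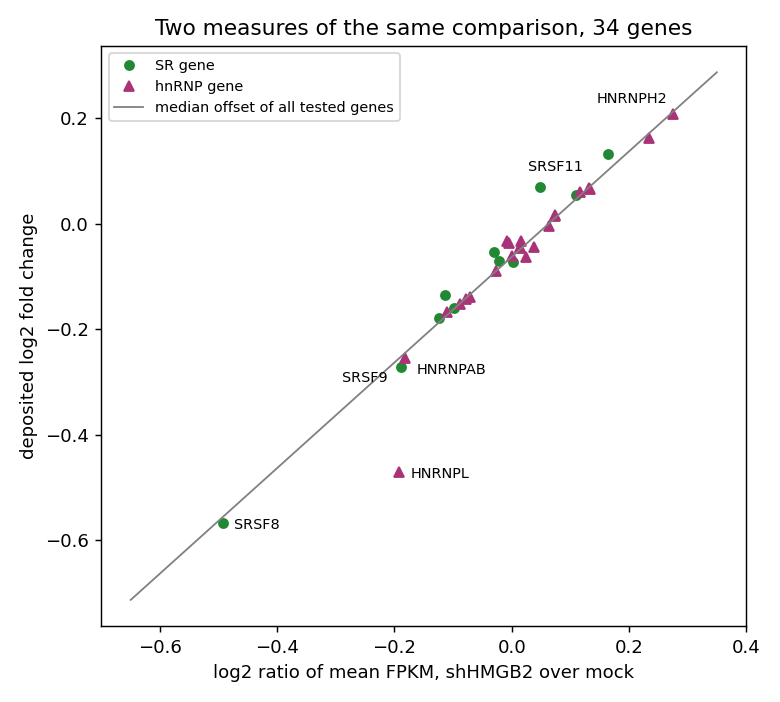
Deposited log2 fold change against the log2 ratio of mean FPKM (shHMGB2 over mock) for the 34 genes tested; circles are SR genes, triangles hnRNP genes, and the grey line is the median offset of all genes tested, -0.063. HNRNPL lies 0.22 beneath the line and SRSF11 0.08 above it, with the other genes close to it.

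The regulators and partners of these families were read from 6 lists. Of 132 tested genes in them, 2 passed in limma (1.52%, against 6.75% of all genes tested), with a median log2 fold change of 0.01. Of 11 tested SR kinases and importers 0 passed; PRPF4B, a kinase of the spliceosome, had the smallest p, with 15.4 ± 2.13 and 18.8 ± 1.13 FPKM (SD over 3 libraries per group, adjusted p = 0.128 by limma). Of 21 SR-related proteins 0 passed, with SCAF1 at 15.9 ± 0.953 and 13.0 ± 0.50 FPKM (SD over 3 libraries per group, adjusted p = 0.0558 by limma). Of 13 hnRNP proteins that carry other symbols, such as the PTBP and PCBP genes, 0 passed, with PTBP3 at a limma adjusted p of 0.107. Of these 11, 21 and 13 genes, 3, 8 and 1 had an unadjusted p under 0.05 in limma, beside 27.9% of all genes tested.

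Of 22 other splicing regulators tested, 0 passed in limma. An unadjusted p under 0.05 was found for 10 of them, beside 27.9% of all genes tested and 27.3% over the 6 lists, and their median log2 fold change was 0.14, beside 0.04 over all genes tested. QKI, which binds introns and promotes circular RNAs, had 9.25, 12.7 and 12.3 FPKM in mock and 15.9, 17.0 and 15.4 in shHMGB2, with no overlap (log2 difference 0.47 ± 0.115 SE, adjusted p = 0.0549 by limma). It passed with copies summed and in 4 of the other alternatives run on all libraries, such as a filter of 5 FPKM (limma adjusted p = 0.0373), and also without mock replicate 1 (limma adjusted p = 0.0361). At an adjusted p under 0.05 the authors' deposited table has 4 of this list higher and 0 lower. That is a larger share higher than the 6.13% of all its rows, and a smaller share lower than their 9.23%. The difference in shares was not tested.

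The core spliceosome held the 2 genes that passed. SNRNP27, a protein of the U4/U6.U5 tri-snRNP, fell from 39.0 ± 2.38 to 30.5 ± 1.72 FPKM (SD over 3 libraries per group), a log2 difference of -0.34 ± 0.069 SE with an adjusted p of 0.0312 by limma. SNRPF, a protein of the Sm ring, fell from 565 ± 15.8 to 480.2 ± 9.74 FPKM (SD over 3 libraries per group), a log2 difference of -0.24 ± 0.054 SE with an adjusted p of 0.0471 by limma. The other 48 of 50 tested did not pass, and the list's median was -0.02. An unadjusted limma p under 0.05 was found for 9 of the 50, beside 27.9% of all genes tested. The summed level of the list was 5233 to 5784 FPKM in mock and 4986 to 5150 in shHMGB2, without overlap. For the other splicing regulators the sums lay the other way, at 1051 to 1075 and 1132 to 1201 FPKM. No test was made on these sums. Of the 50, the authors' deposited table has 9 lower and 0 higher at an adjusted p under 0.05. That is a larger share lower than the 9.23% of all its rows, and a smaller share higher than their 6.13%. The difference in shares was not tested. Both calls were fragile: SNRPF was lost in limma without any single library (adjusted p from 0.055 to 0.164), and SNRNP27 without mock replicate 2 or any shHMGB2 library (adjusted p from 0.063 to 0.121). Of 15 genes of the exon junction complex and nonsense-mediated decay 0 passed in limma, beside 6.75% of all genes tested. Unadjusted, 5 of the 15 had a p under 0.05, beside 27.9% of all genes tested. SMG6 was at 6.20 ± 0.317 and 8.16 ± 0.843 FPKM (SD over 3 libraries per group, adjusted p = 0.0586 by limma).

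Annotated transcript types are given as a description, since they use no expression value of these libraries beyond the filter on mean level. GENCODE 29 lists a transcript of the nonsense-mediated decay type for 25 of the 33 tested members it annotates as protein-coding, or 75.8%, against 44.6% of 10815 tested protein-coding genes. A retained-intron transcript is listed for 66.7% and 59.1%. The 25 include the readthrough HNRNPUL2-BSCL2, noncoding in RefSeq, whose 1 GENCODE transcript is of the decay type. SRSF7 has 6 decay transcripts and HNRNPU 9, while HNRNPA0, HNRNPA1L2, HNRNPA3, HNRNPAB, HNRNPF, HNRNPH2, HNRNPH3 and HNRNPUL2 have 0. The table does not separate these transcript types, so shifts between coding and decay forms were not measured.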

How the data were processed

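RNA of 6 KYSE450 libraries, made from total RNA with an mRNA library kit per the labels, was measured, 3 mock and 3 shHMGB2, grouped by their titles. The submitters' processing notes list Bowtie2 2.2.5, RSEM 1.2.12 and hg38, with no role or order. The authors deposited 1 table: FPKM per library with 2 decimals, a normalized signal per group, a log2 fold change, and a p-value with its adjusted p-value, per the file headers; no source used here gives the test behind the latter. FPKM are not counts, so log2(FPKM + 1) of the 13409 rows with a mean of at least 1 FPKM was fitted with limma 3.58.1 in R 4.3.3 (group as the single term, mean-variance trend, Benjamini-Hochberg over all genes tested, threshold 0.05, 2-sided). Fold changes on this scale understate low genes. The fit was tested on simulated data. Members, lists and tests were chosen with earlier results of these data known. Members named with full values were those past the threshold, SRSF1, HNRNPA1, the 3 smallest p and the highest level per family; from each list, the 3 largest changes past the threshold or else the smallest p. Others, such as HNRNPL, were chosen after their values were seen. Alternatives covered the pseudocount (0.1), the filter (none, or 5 FPKM), 3 scalings, the variance model, library weights, a replicate block, each library left out, and the numbered copy rows (2138 in the table) added to their gene. Sequences and transcript types are from GENCODE 29 and RefSeq. Shared words are exact 50-base matches on the transcript strand, between the protein-coding transcripts of a member and all transcripts of other genes.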

Additional observations from a re-analysis of the deposited data

How the results depend on the processing

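The median log2 fold change of the SR and hnRNP genes stayed between -0.036 and 0.036 in all settings run. SRSF8 kept its direction in all of them, with log2 fold changes from -0.53 to -0.42. Of the 34 genes, 4 were called higher and 5 lower with array weights (26.5%, beside 31.3% of all genes), and leaving out 1 library gave 0 to 2 lower. Over all genes, 167 were higher and 245 lower without a filter and 2436 and 1758 with array weights; leaving out 1 library gave 96 to 444 higher and 192 to 445 lower. Libraries with the same replicate number did not deviate together over the genes tested (correlations -0.012, -0.038 and -0.096). Those with different numbers gave -0.05 to 0.094. The labels do not say whether the numbers pair samples, and these correlations would miss a weak pairing. With the numbers as a replicate block, 138 genes were higher and 234 lower. There SRSF8 passed (limma adjusted p = 0.0391) and 0 core spliceosome genes were lower. With array weights, the higher and lower counts were 2 and 0 for SR kinases, 3 and 4 for SR-related proteins, 3 and 0 for hnRNPs of other symbols, 8 and 0 for other regulators, 5 and 6 for the core spliceosome and 2 and 4 for the exon junction and decay genes. SR-related proteins had 1 lower with a 5 FPKM filter, median-of-ratios scaling, quantile normalization or copies summed. Other regulators had 1 higher with a 5 FPKM filter, upper-quartile scaling, quantile normalization or no trend, 2 with copies summed, and 0 to 2 with 1 library left out. The core spliceosome had 0 lower without a filter, 1 with upper-quartile scaling, quantile normalization or no trend, and 0 to 1 with 1 library left out; hnRNPs of other symbols had 0 to 1 higher. Exon junction and decay genes had 1 lower with quantile normalization and 1 higher with copies summed. The log2 ratio of sums was -0.005 (SR) and 0.060 (hnRNP) with quantile normalization. With median-of-ratios scaling it was -0.102 (SR) and -0.049 (hnRNP). Leaving out 1 library gave -0.083 to -0.033 (SR) and -0.028 to 0.013 (hnRNP). Small values turned sign: SRSF1 (-0.07 to 0.006 with 1 library left out) to 0.006, 0.005 and 0.006 with quantile normalization, array weights and without shHMGB2 replicate 1; HNRNPA1 (-0.04 to 0.03) to 0.10, 0.006, 0.02 and 0.03 with quantile normalization, array weights, without mock replicate 3 and without shHMGB2 replicate 1; SRSF2 (-0.07 to 0.04) to 0.04, 0.08 and 0.04 with quantile normalization, array weights and without mock replicate 1. The cause of these shifts was not tested. Depth per library is unknown, so no counting interval is given.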

Other observations

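Numbered copy rows, whose transcripts are not stated, also bear on other splicing genes. TAF15, an RNA-binding protein of the FET family, had a main row at 29.2, 6.90 and 18.1 FPKM in mock and at 78.1, 37.5 and 22.7 FPKM in shHMGB2, while its copy row had 86.2, 115 and 106 and then 54.6, 94.4 and 119 FPKM. The log2 fold change of the main row, 1.33 (limma adjusted p = 0.173), was 0.16 (limma adjusted p = 0.111) with the rows summed. For EIF4A3, a helicase of the exon junction complex, it went from -0.58 to -0.15. The library that stood apart was shHMGB2 replicate 2, at 9.89 FPKM in the main row and 39.9 in the copy row, while the other shHMGB2 libraries had 26.4 and 26.5 FPKM in the main row and the mock libraries 31.0, 27.0 and 29.4. DHX16 and PRPF31, with 7 and 9 copy rows, changed sign on summing, from 0.18 to -0.08 and from 0.21 to -0.07. Neither gene passed in limma before or after summing (adjusted p = 0.6788 and 0.4524 for DHX16, 0.2266 and 0.5455 for PRPF31).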
